A study of Homo sapiens with 4 samples.

Results

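RNA synthesis at the genes for P-TEFb, the proteins of the 7SK particle and the NELF complex was examined after acute depletion of the elongation factor IWS1. The genes were chosen by name from the table of gene-level TT-seq values: *CDK9*, *CCNT1* and *CCNT2* for P-TEFb, *HEXIM1*, *LARP7* and *MEPCE* for 7SK, and *NELFA*, *NELFB* and *NELFE* for NELF. Of these 9 names, 7 were found among the 10147 genes of the table. The paper describes a set of this size, with overlapping genes left out and expression above a threshold in TT-seq required. Shares and medians of all genes below refer to genes of that set. Which of these steps left a name out was not tested. *NELFA* and *NELFE*, also looked for under their older symbols, were not analysed here.

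All cells were K562, a chronic myelogenous leukemia cell line, edited so that IWS1 carries a degradation tag (dTAG) at its N-terminus. The tag is present in the control cells too, which received only the solvent DMSO for 1 h. In dIWS1 cells the tagged protein was depleted with 500 nM dTAG7, a ligand that directs tagged proteins to degradation, also for 1 h. New RNA was labelled with 500 µM 4-thiouridine (4sU) for 5 min, isolated and sequenced, so the reads report RNA made in that window, introns included. Synthetic spike-in RNAs set the scale between libraries. The labels give 2 control and 2 dIWS1 libraries as biological duplicates, all of edited cells, and the sources do not say whether the cells were 1 clone.

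The deposited table holds 1 mean per gene over 4 library columns. Whole reads per column were recovered from the steps in these means. Only 3 different columns were found, because the control column had entered the mean 2 times with identical reads. It was counted as 1 sample throughout. The control column held 29832118 reads in genes, dIWS1 column 1 held 20684301 and dIWS1 column 2 held 20886697. The dIWS1 columns carry no replicate number, so they are named only in the order in which their steps were found. All 10 K562 marker genes looked for were in the table, and of 7 markers of other lineages only *KRT8* was. The table had been limited by the authors to expressed genes that do not overlap others. *IWS1* itself had 3684 control reads, and its RNA synthesis was lower in dIWS1 (log2 fold change -0.55, adjusted p = 0.000882, limma voom with Benjamini-Hochberg adjustment). Of all genes tested, 65.0% were called lower. Relative to the median gene the value of *IWS1* was -0.13 (adjusted p = 0.658, limma voom), so its fall was not set apart. The tag acts on the protein, so neither value measures the depletion.

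Pol II stops shortly after the start of many genes, held by NELF together with DSIF. P-TEFb, the kinase CDK9 with a cyclin T, phosphorylates NELF, DSIF and the Pol II tail, and the polymerase then enters productive elongation. Much of the P-TEFb in a cell is kept inactive in the 7SK particle, where the 7SK RNA is capped by MEPCE, bound at its end by LARP7 and used by HEXIM1 to block the kinase. *HEXIM1* is well known as a gene that responds to P-TEFb activity.

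The genes differ in architecture. *CDK9*, the kinase subunit, lies on the plus strand at chr9:127786034-127790792 and spans 4759 bp with 7 exons. *CCNT1*, the main cyclin partner, lies on the minus strand at chr12:48688458-48716707, with 28250 bp and 9 exons. *CCNT2*, the alternative cyclin, lies on the plus strand at chr2:134918822-134959342, with 40521 bp and 9 exons. *HEXIM1*, at chr17:45148475-45152099 on the plus strand, is a single exon of 3625 bp. *LARP7* lies at chr4:112637143-112657586 on the plus strand, with 20444 bp and 13 exons. *MEPCE* lies at chr7:100428790-100434118 on the plus strand, with 5329 bp and 4 exons. *NELFB*, a core subunit of NELF, lies at chr9:137255327-137273542 on the plus strand, with 18216 bp and 13 exons. Positions are those of RefSeq on GRCh38.p14 and exon numbers those of the GENCODE canonical transcript. The median gene of the table spans 27159 bp, so *CDK9*, *HEXIM1* and *MEPCE* are short genes and *CCNT1* and *CCNT2* are near or above the median. Their GC content ranged from 37.1% for *CCNT2* to 58.8% for *MEPCE*, beside a median of 44.4%.

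Some of these genes have close neighbours. The antisense RNA gene *HEXIM2-AS1* overlaps *HEXIM1* on the other strand, and the *MIR302CHG* host gene lies inside *LARP7* on the other strand. The authors counted with respect to strand, so these are separate from the genes named here. *ZGRF1* starts 234 bp from *LARP7* in the opposite direction and is also in the table.

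The promoters are shown for the genes with the deepest and shallowest change (*NELFB* and *CCNT2*), for the kinase (*CDK9*) and for the only one of the 7 that holds the exact letters TATAAA (*HEXIM1*). Each line gives the 110 bases before the RefSeq start on GRCh38.p14, 5′ to 3′ on the gene's plus strand. Capitals mark matches to a GC box, the TATAAA letters or an ETS motif, with the other letters given after the sequences. The windows are chr9:137255217-137255326 for *NELFB*, chr17:45148365-45148474 for *HEXIM1*, chr9:127785924-127786033 for *CDK9* and chr2:134918712-134918821 for *CCNT2*.
NELFB: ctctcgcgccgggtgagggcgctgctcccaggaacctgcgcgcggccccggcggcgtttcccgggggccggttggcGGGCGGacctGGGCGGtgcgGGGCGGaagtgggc
HEXIM1: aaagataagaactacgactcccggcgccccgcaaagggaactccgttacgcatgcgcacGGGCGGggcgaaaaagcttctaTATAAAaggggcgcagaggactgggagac
CDK9: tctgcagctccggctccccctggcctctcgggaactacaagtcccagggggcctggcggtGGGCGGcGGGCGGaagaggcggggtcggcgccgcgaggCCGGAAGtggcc
CCNT2: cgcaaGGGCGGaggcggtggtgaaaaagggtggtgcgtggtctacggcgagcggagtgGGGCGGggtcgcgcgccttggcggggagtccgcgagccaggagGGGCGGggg

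Over 250 bases before the start, on both strands, every one of the 7 genes held at least 1 GC box (GGGCGG), from 1 in *CCNT1* and *LARP7* to 7 in *NELFB*. GC boxes stood in 68.8% of the 8021 promoters of listed genes that have an entry. The TATAAA of *HEXIM1* begins 29 bases before the start, and these letters occurred in 5.12% of those promoters. Looser forms of the TATA box were not searched. Near its start *CDK9* also holds 1 ETS motif (CCGGAAG), a sequence found in 18.1% of them. No match overlaps another in the windows shown. GC content over the 250 bases was 82% for *CDK9* and 78.4% for *NELFB*, against a median of 65.2%, while *CCNT1* (59.2%), *LARP7* (59.6%) and *HEXIM1* (62.4%) lay below it. These matches describe the letters only.

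To ask how IWS1 depletion changed synthesis at these genes, reads were divided by the spike-in size factors and fitted with limma voom over 10007 genes. Of the 7 genes, 6 fell at an adjusted p under 0.05 and none rose. This count is to be read against a broad fall, since 65.0% of all genes tested were called lower and 0.130% higher. The fold changes ran from -0.24 to -0.57 on the log2 scale, with a median of -0.33, and the median of all genes was -0.42 (quartiles -0.60 and -0.26). The fit has 1 control column, assumed to vary as the dIWS1 columns do, and the p-values measure only the spread between the dIWS1 columns pooled over genes. In bulk samples fewer cells and less RNA per cell cannot be told apart.

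Within P-TEFb, 2 of 3 genes were called lower, beside 65.0% of all genes tested. The kinase gene *CDK9* had 593 normalized counts in the control, 456 in dIWS1 column 1 and 523 in column 2. Both dIWS1 columns were below the control, with log2 ratios of -0.38 in column 1 and -0.18 in column 2. The fitted log2 fold change was -0.28 ± 0.13 (SE), with a 95% interval from -0.53 to -0.03 and an adjusted p of 0.0469 (limma voom). This is a fall of 17.7%.

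*CCNT1* encodes cyclin T1, which binds CDK9 and is the cyclin used by the HIV Tat protein. It had 4638 normalized counts in the control, 3354 in column 1 and 4058 in column 2. Column 1 was lower than column 2 by 0.27 on the log2 scale, the widest gap in this direction among the 7 genes, and the log2 ratios to the control were -0.47 and -0.19. The fold change was -0.33 ± 0.15 (SE), with an interval from -0.63 to -0.03 and an adjusted p of 0.0466 (limma voom).

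*CCNT2*, the gene for cyclin T2, was the one not called. Its normalized counts were 4504 in the control, 3613 in column 1 and 4048 in column 2, so both columns again lay below the control, with log2 ratios of -0.32 and -0.15. The fold change was -0.24 ± 0.15 (SE), its 95% interval from -0.53 to 0.06 included 0, and the adjusted p was 0.153 (limma voom). That interval also contains the values of *CDK9* and *CCNT1*, and no difference between the P-TEFb genes was shown. The calls for *CDK9* and *CCNT1* sit close to the threshold. With robust empirical Bayes moderation, added after the data were seen, their adjusted p-values were 0.0893 and 0.0888 (limma voom).

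**Figure D1:**
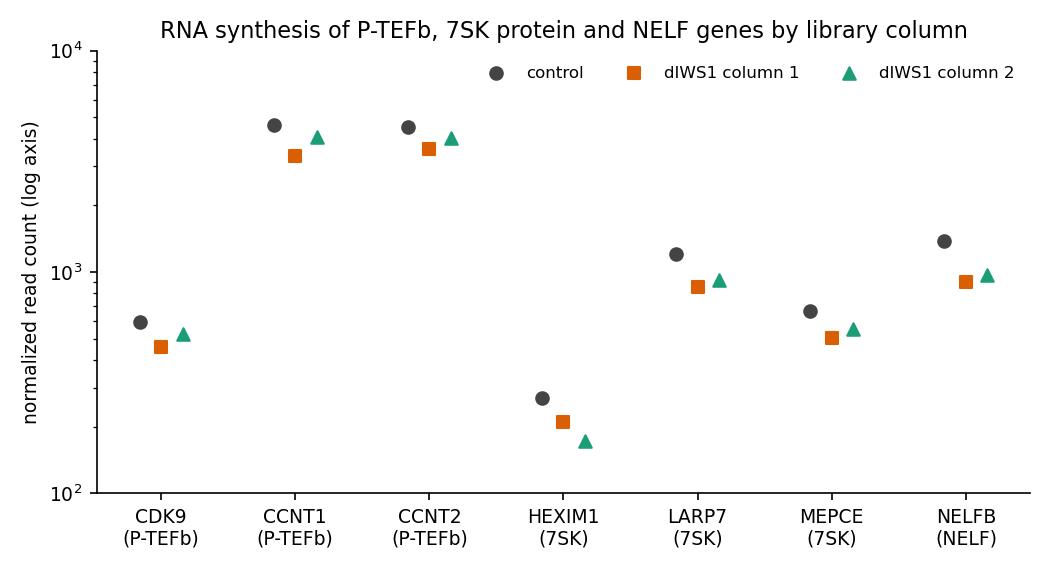
Spike-in normalized counts of the 7 genes in the control column and the 2 dIWS1 columns, on a log axis. Every dIWS1 point lies below its control point, from *CCNT1* at 4638 in the control down to *HEXIM1* at 269.

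All 3 genes for 7SK proteins were called lower, beside 65.0% of all genes tested. *HEXIM1*, whose protein inhibits P-TEFb when bound to 7SK RNA, had the fewest reads, 272 in the control, 208 in column 1 and 159 in column 2. These are 269, 209 and 173 normalized counts. The fold change was -0.50 ± 0.15 (SE), with an interval from -0.79 to -0.20 and an adjusted p of 0.00243 (limma voom).

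*HEXIM1* was the only one of the 7 genes with column 2 below column 1. Its single-column log2 ratios to the control were -0.36 in column 1 and -0.64 in column 2. The gap of 0.28 has a counting SE of 0.152. Over the 8900 genes whose mean reached 100 normalized counts, the gap of column 1 minus column 2 had a median of -0.12 and an SD of 0.13. A gap larger than that of *HEXIM1* occurred in 1.16% of them, and in 3.57% of the 1234 genes whose mean is within 1.5 times its own.

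*LARP7*, whose protein protects the end of 7SK RNA, had 1204 normalized counts in the control, 854 in column 1 and 921 in column 2. Its fold change was -0.44 ± 0.14 (SE), close to the all-gene median, with an adjusted p of 0.00312 (limma voom). *MEPCE*, the gene of the 7SK capping enzyme, had 663, 502 and 554 normalized counts in the same order. Its fold change was -0.33 ± 0.13 (SE), with an adjusted p of 0.0200 (limma voom). For both genes the dIWS1 columns lay closer to each other than to the control.

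*NELFB* encodes a NELF subunit and had the lowest fold change of the 7. It had 1380 normalized counts in the control, 897 in column 1 and 968 in column 2. The fold change was -0.57 ± 0.14 (SE), with an interval from -0.84 to -0.29 and an adjusted p of 0.000199 (limma voom), a fall of 32.4%. The 95% intervals of the 7 genes overlapped in 21 of 21 pairs. Overlap is no test of a difference, and differences between genes were not tested.

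**Figure D2:**
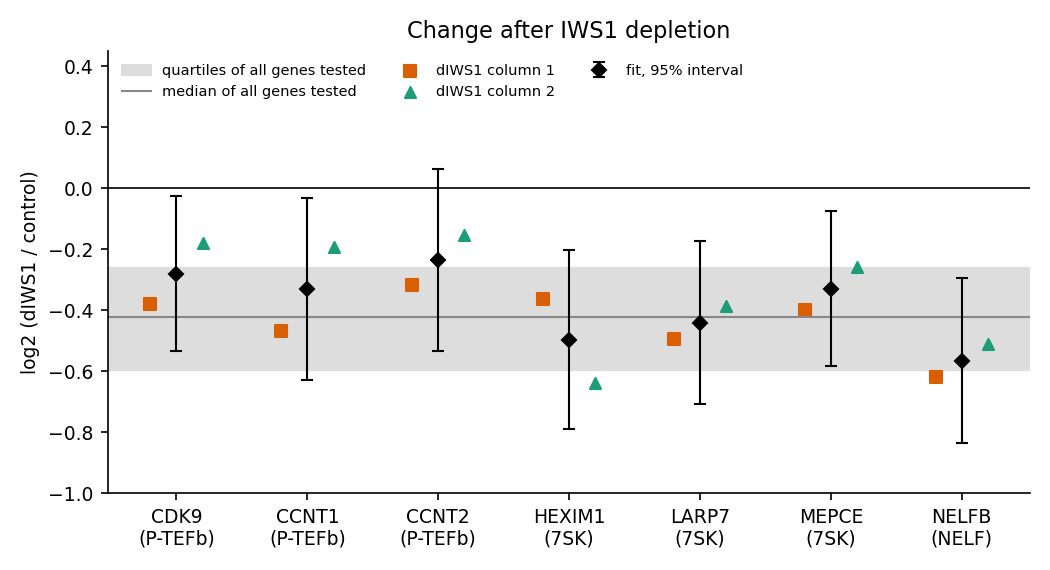
Log2 fold changes (dIWS1 over control) of the 7 genes with 95% intervals from limma voom, beside the ratio of each single dIWS1 column and the median and quartiles of all genes tested. Only the interval of *CCNT2* reaches above 0, and 6 of 7 values lie within the quartiles of all genes.

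Of the 7 genes, 4 lay above and 3 below the all-gene median, and 6 lay within the quartiles. *CCNT2* was less reduced than 78.8% of genes and *CDK9* less than 72.4%. *NELFB* lay at the other end, with 29.2% of genes at a lower value. All 7 were below the control in both dIWS1 columns, as were 93.8% of those 8900 genes.

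When the fold changes were taken relative to the median gene, the 7 genes ran from -0.14 for *NELFB* to 0.19 for *CCNT2*, and 0 of 7 passed the test in either direction. On that scale 4.86% of all genes were called lower and 2.94% higher. *CDK9* (0.14), *CCNT1* (0.09), *CCNT2* and *MEPCE* (0.09) had values above 0, and *HEXIM1* (-0.07) and *LARP7* (-0.02) had values below 0. With size factors from the median ratio of all genes in place of the spike-ins, 0 of 7 were called, 11.9% of genes were called lower and 12.0% higher. The direction of fall for *CDK9*, *CCNT1*, *CCNT2* and *MEPCE* thus rests on the spike-in scale, which moves the median of all genes by -0.42. The lower calls of *HEXIM1*, *LARP7* and *NELFB* rest on that scale too.

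**Figure D3:**
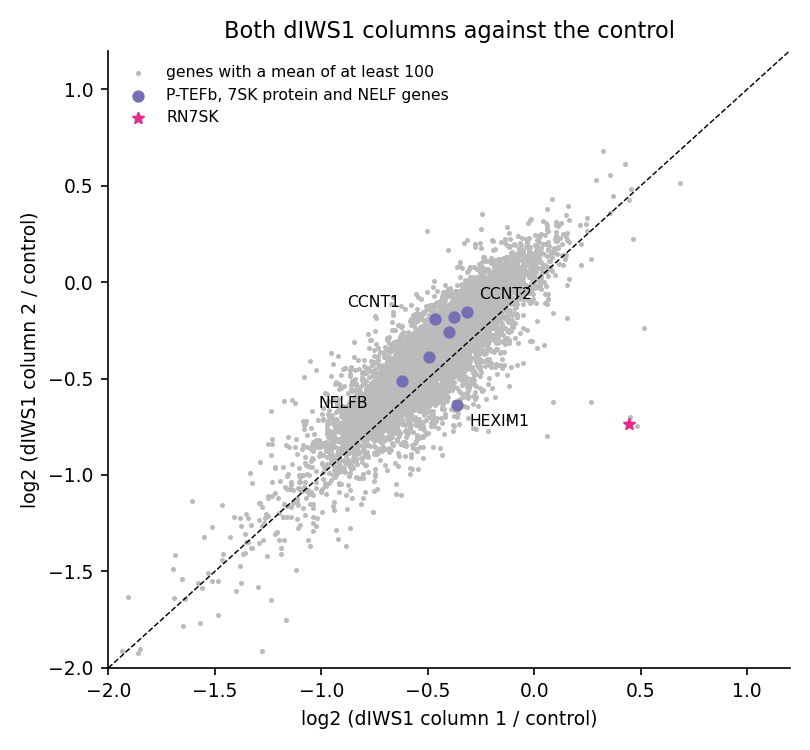
Log2 ratio to the control in dIWS1 column 1 (x) and column 2 (y) for genes whose mean reached 100 normalized counts, with the 7 genes and *RN7SK* marked, the diagonal of equal ratios dashed and 5 genes outside the axes. The 7 genes lie where both ratios are below 0, with *HEXIM1* at the lower edge of the cloud, and *RN7SK* lies far off it, at 0.44 and -0.73.

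Levels were compared per kb of gene span, as TT-seq reads cover introns. In the control, *CCNT1* had the highest level at 164 normalized counts per kb, followed by *CDK9* at 125 and *MEPCE* at 124. The last 2 differ by less than their counting errors of 4.09% and 3.87%. *CCNT2* had 111, *NELFB* 75.7, *HEXIM1* 74.3 and *LARP7* 58.9 per kb. *NELFB* and *HEXIM1* also differ by less than counting error (2.68% and 6.06%). All 7 were above the median gene, at 40.7 per kb.

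The order in the dIWS1 columns was similar at its ends. *CCNT1* stood highest, with 119 and 144 per kb, and *LARP7* lowest, with 41.8 and 45.1, and neither range overlapped that of another gene. In column 2, however, *LARP7* (45.1) and *HEXIM1* (47.7) differ by less than the counting error of *HEXIM1* (7.93%). The ranges of *CDK9* (95.8 and 110), *MEPCE* (94.3 and 104) and *CCNT2* (89.2 and 99.9) overlapped, and that of *NELFB* (49.2 and 53.1) lay within that of *HEXIM1* (47.7 and 57.8). The level of *CCNT1* per kb was thus above that of its kinase partner in each column. Per kb of exons the order in the control differs, with *NELFB* (543) second after *CCNT1* (629) and *HEXIM1* (74.3) last.

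**Figure D4:**
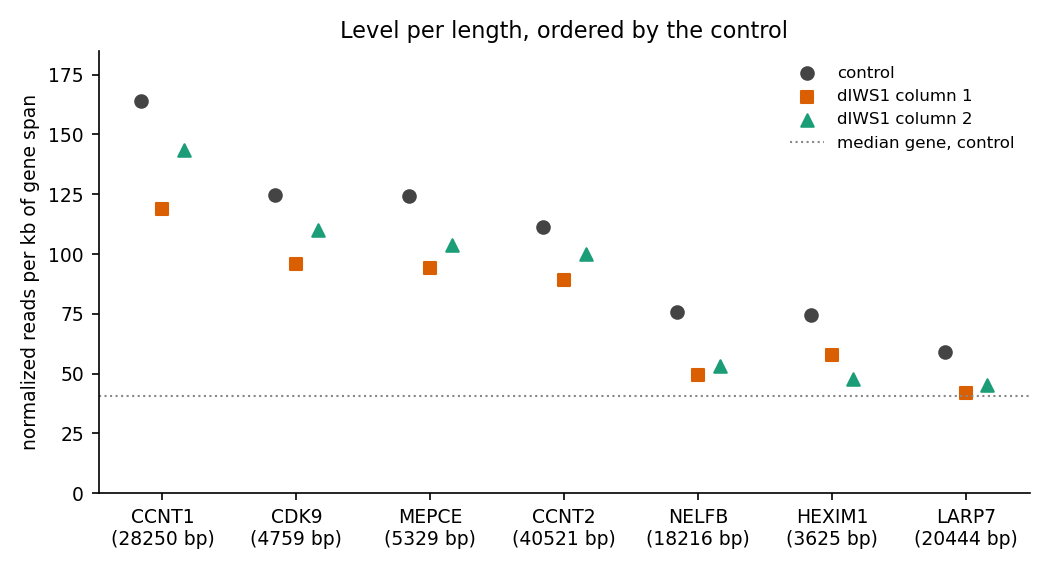
Spike-in normalized counts per kb of gene span for the 7 genes in the control and in each dIWS1 column. *CCNT1* is highest in every column (164 in the control) and *LARP7* is lowest (58.9 in the control).

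Many genes had ratios like those of the kinase gene. With *CDK9* as the reference, the 3 genes with the most similar pair of log2 ratios, by Euclidean distance over the 2 dIWS1 columns, were *DLD*, *CARHSP1* and *VEZT*. Their distances were 0.000438, 0.00169 and 0.00329, and 1274 genes lay within 0.1 of *CDK9*.

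The remaining pathway genes were read from a list of 36, of which 28 were in the table. Of these, 18 fell, 1 rose and 9 did not pass the test, with a median log2 fold change of -0.41. Over all genes tested 65.0% were called lower and the median was -0.42, so neither the count nor the median sets the list apart. *NELFCD*, the NELF subunit listed beside *NELFB*, had 790 normalized counts in the control, 570 in column 1 and 696 in column 2. Its fold change was -0.33, with an adjusted p of 0.0218 (limma voom). For DSIF, *SUPT5H* fell (-0.43, adjusted p = 0.00552, limma voom), and *SUPT4H1* had -0.24 and an adjusted p of 0.0893.

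The 7SK RNA gene *RN7SK*, transcribed by Pol III, had very unequal columns. It had 4908 reads in the control, 6568 in column 1 and 2688 in column 2. Column 1 was above and column 2 below the control, with log2 ratios of 0.44 and -0.73. Of the 8900 genes only 1 had a larger gap of column 1 minus column 2. The fitted log2 fold change of -0.14 (adjusted p = 0.382, limma voom) therefore describes neither column. With robust moderation its SE was 0.94 in place of 0.15. The gap of column 1 minus column 2 was 1.18 for *RN7SK*. For the 7SK protein genes it was 0.28 in *HEXIM1* (counting SE 0.152), -0.11 in *LARP7* and -0.14 in *MEPCE*. With dIWS1 column 1 left out the log2 ratio of *RN7SK* is -0.73, and without column 2 it is 0.44.

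Among recruiters of P-TEFb and members of the super elongation complex, 6 of 9 fell and 1 rose, beside 65.0% of all genes called lower and 0.130% called higher. *AFF4*, the scaffold of the super elongation complex, had a log2 fold change of -0.33 (adjusted p = 0.0398, limma voom). *MLLT1*, which encodes the ENL subunit, had -0.72. *EAF2*, an ELL-associated factor, was the only gene of the list that rose, with 286 reads in the control, 453 in column 1 and 372 in column 2. Its fold change was 0.60 (adjusted p = 8.02e-05, limma voom), and 1.02 relative to the median gene. Its control level was low, at 5.52 normalized counts per kb of span, below the first quartile of all genes at 19.2.

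Of the genes linked to release of P-TEFb from 7SK, 2 of 4 fell, which were *HNRNPA1* (-0.40) and *HNRNPR* (-0.54). Other kinases of the Pol II tail and their cyclins fell in 5 of 7 cases, near the 65.0% of all genes called lower. Among them were *CDK12* (-0.61) and *CDK13* (-0.54). *CDK7*, the kinase of TFIIH, had 0.07 and did not pass the test, with 3315, 3174 and 3430 reads. Relative to the median gene *CDK7* had 0.50 (adjusted p = 0.0209, limma voom), on a scale where 2.94% of all genes were called higher.

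Among the phosphatase genes 3 of 4 fell, beside 65.0% of all genes called lower, and the values ran from -1.30 to -0.30. The 2 lowest values of the list were in this group. *PPP1R10*, which encodes the PNUTS targeting subunit of protein phosphatase 1, had 2260 reads in the control, 853 in column 1 and 882 in column 2. Its fold change was -1.30 (adjusted p = 3.49e-17, limma voom), and against the median gene it was -0.88 (adjusted p = 1.96e-07, limma voom). *SSU72*, a phosphatase of the Pol II tail, had 3181, 1347 and 1491 reads and a fold change of -1.09 (adjusted p = 1.73e-11, limma voom). Against the median gene the value was -0.66 (adjusted p = 0.000468, limma voom). Both lie below the whole range of the 7 P-TEFb, 7SK and NELF genes.

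**Figure D5:**
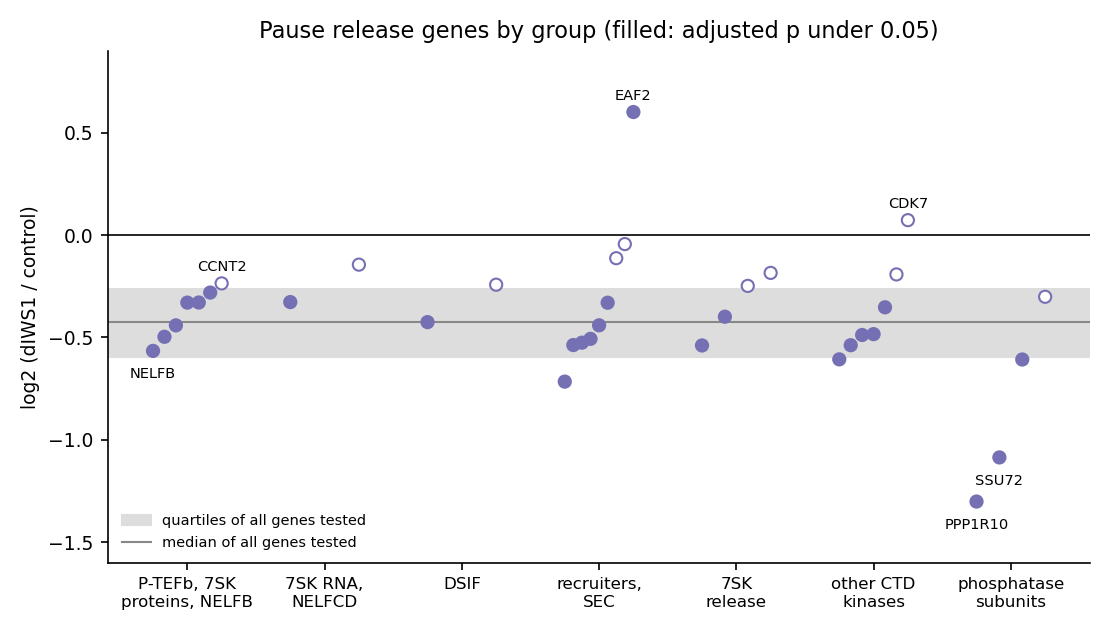
Log2 fold changes (dIWS1 over control, limma voom) of the 7 genes and of the 28 other pathway genes in the table, by group (SEC, super elongation complex), filled where the adjusted p was under 0.05 and open otherwise, with the median and quartiles of all genes tested. Furthest from the quartile band are *PPP1R10* (-1.30) and *SSU72* (-1.09) below it and *EAF2* (0.60) above it. Other genes also lie outside the band, among them *MLLT1* (-0.72) below and *CDK7* (0.07) above.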

How the data were processed

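The study measured TT-seq in edited K562 cells, 2 control and 2 dIWS1 libraries at 1 h. The authors aligned reads to GRCh38 with STAR 2.6.0, made strand-specific counts per gene and fitted DESeq2 with spike-in size factors. The deposited table gives a signal per gene (mean over 4 columns of counts divided by size factor). The deposited log2 fold change and its error in log2 units, a Wald score, and p-values from the authors' comparison are neither printed nor tested here. The log2 fold change only narrowed the search for reads and showed which columns are dIWS1, with dIWS1 over control taken as its direction from the methods.

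One read added 0.4952 (control), 0.2517 or 0.2719 (dIWS1) to the mean. All 10136 means above 0 had 1 solution, and 11 were 0. The 7 genes had the same single solution in a search without the deposited ratio. The control read step was about the sum expected of a column entered 2 times, and no mean needed a finer step, so the control was 1 column used 2 times and no replicate error was measured in it. Counts had been planned as the deposited unit, and limma was used because only means were given.

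limma 3.58.1 (R 4.3.3) voom was run on the recovered reads of 3 columns with at least 10 reads, two-sided, with Benjamini-Hochberg adjustment and a threshold of 0.05. Its prior pooled the spread fully over genes. Single-column ratios used a pseudocount of 0.5 normalized counts. The script was tested on simulated data. Genes were matched to RefSeq by symbol (9353), gene number (169) or synonym (576), and 49 were not. Promoter letters came from the RefSeq sequence table. Counting errors cover sampling of reads only. The genes, the pathway list and the tests were chosen with earlier results of these data known. The named genes are these, the pathway list, *IWS1*, and the 3 nearest to *CDK9*. Neighbouring genes and the marker *KRT8* are also named, outside that rule. The value of 1 listed pathway gene is not reported here. Alternatives were other scalings, filters, thresholds and moderation, the control entered 2 times, and single columns left out.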

Additional observations from a re-analysis of the deposited data

How the results depend on the processing

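The scale set the direction for 4 of the 7 genes under each of 3 other scalings. The median log2 fold change of the 7 genes was -0.33, and 0.092 with median-ratio size factors, 0.11 with total reads scaling and 0.094 relative to the median gene. In that order *CDK9* had 0.14, 0.16 and 0.14, *CCNT1* 0.092, 0.11 and 0.094, *CCNT2* 0.19, 0.21 and 0.19, and *MEPCE* 0.093, 0.11 and 0.095. *LARP7* had 0.00068 with total reads. Each of the 3 scalings called 0 of the 7 lower, and total reads called 1 higher (*CCNT2*). Over all genes they called 1188, 1350 and 486 lower and 1199, 1836 and 294 higher, in place of 6505 and 13. These scalings centre the genes by construction.

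limma-trend called 3 of the 7 lower (*CDK9*, *CCNT1* and *MEPCE* lost the call), beside 5494 of all 10007 genes lower and 8 higher. An adjusted p under 0.01 left 3 of the 7, beside 4884 of all genes lower and 6 higher. With the control entered 2 times 6 of the 7 were called lower, beside 7850 of all genes lower and 55 higher. *CCNT1* then lost its call (adjusted p = 0.0531, limma voom) and *CCNT2* gained one (0.0412). With robust moderation, added after the data were seen, 4 of the 7 were called lower, beside 5643 of all genes. The filters on low counts kept 6 of the 7. Lower calls over all genes were then 6539 with no filter and 6087 with a mean of at least 100. Leaving out each dIWS1 column gave medians from -0.40 to -0.26, with no test. Without column 1 *CDK9* went from -0.28 to -0.18, *CCNT1* from -0.33 to -0.19 and *CCNT2* from -0.24 to -0.15. No paired analysis was possible because the recovered control was not replicated and the columns carry no replicate numbers. Depth limits *HEXIM1* most, at 159 to 272 reads.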
